A study of Saccharomyces cerevisiae with 24 samples.

Results

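The transcriptome of yeast carrying phosphosite mutants of both Yhp1 and Yox1 (yhp1-13A yox1-9A) was compared with that of wild type (WT) yeast collected alongside. Of the 7126 gene identifiers in the deposited table, the 6316 with a mean of at least 1 TPM (transcripts scaled to a common sum in every sample) over the 12 samples of the phosphomutant set were compared, and none was chosen by its response. RNA-seq was performed on 3 biological replicates of each strain. The double mutant was MATa with leu2∆0, ura3∆0, met15∆0 and a his3 allele, and carried yox1-9A-3V5-KanMx and yhp1-13A-13MYC-LEU2. The his3 allele is his3∆0 in the labels and his3Δ1 in the study's strain list, which was not resolved. The WT strain had the same background and carried YOX1-3V5-KanMx and YHP1-13MYC-LEU2, so that tags and selection markers were shared and the strains differed by the mutated sites. Each group was a single named strain, and its replicates were separate cultures of that strain. The single mutants yhp1-13A and yox1-9A were part of the same fit, and by their labels each carried the tag and marker of its mutated protein and not of the other, so that yox1-9A had no LEU2 marker. A separate set held yhp1Δ yox1Δ with its own WT. All cells grew asynchronously in rich YM-1 medium with dextrose. Since such a culture is a bulk sample of all cell cycle stages, fewer cells in a stage and less RNA per cell cannot be told apart. The labels name depletion of poly-A RNA before library construction and the methods of the study name its purification, and this was not resolved.

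Yhp1 and Yox1 are homeodomain repressors. They act with Mcm1, a MADS-box factor that binds a palindromic element in the promoters of genes expressed between mitosis and G1 (the early cell cycle box) and of genes of the G2/M CLB2 cluster. At these promoters they keep Mcm1 targets off outside the window in which the targets are needed, and they are themselves made and degraded within each cycle. Cyclin-dependent kinase phosphorylates both proteins, and in yhp1-13A and yox1-9A the phosphosites were replaced by alanine, which cannot be phosphorylated. Mcm1 also works with other partners, at mating type genes and elsewhere, and its targets include the MCM genes for the replicative helicase.

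Both strains had the RNA of MATa cells. MFA1, which encodes a-factor, had 2820, 2256 and 2133 TPM in the double mutant, against 3416, 3889 and 3641 TPM in WT. STE2, the receptor for α-factor, was at 672 ± 24.7 TPM in the double mutant and 682 ± 161 TPM in WT (SD, n = 3 each). Of the α-specific genes, MF(ALPHA)1 stood below 1.4 TPM in all 6 samples, STE3 between 1.81 and 4.22 TPM, and MF(ALPHA)2 between 8.94 and 11.3 TPM. URA3 and MET17 (the MET15 locus) were listed at 0 TPM in all 6 samples. HIS3 was not at 0, with 51.5, 44.2 and 37.0 TPM in the double mutant and 49.7, 58.7 and 33.5 TPM in WT, which goes against a full deletion as labelled. In yox1-9A HIS3 stood at 185, 226 and 115 TPM and LEU2 at or below 0.05 TPM. A sample of the 2 strains held between 17279174 and 18255340 fragments, recovered from TPM and gene length.

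The libraries did not differ by strain alone. In 6 of the 12 samples of the set the deviation from the mean of all samples fell with the GC content of genes, and in the other 6 it rose. The falling class held replicate 1 of the double mutant and replicates 1 and 2 of WT, and the rising class held replicates 2 and 3 of the double mutant and replicate 3 of WT. CCW12, which encodes an abundant cell wall mannoprotein, tracked this split. It had 10678, 25723 and 26468 TPM in the 3 double mutant samples and 11868, 8279 and 25140 TPM in the 3 WT samples. Replicate 1 of all 4 strains was in the falling class and replicate 3 of all 4 in the rising class, while replicate 2 was split. The labels name no batch, so the classes rest on the data alone, and their origin was not tested. They cross the strains unevenly, and the main results are therefore also given within them, as replicate 1 of the double mutant against WT replicates 1 and 2 and as replicates 2 and 3 against WT replicate 3. A within-class value has a single sample on 1 side and no measured error.

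**Figure D1:**
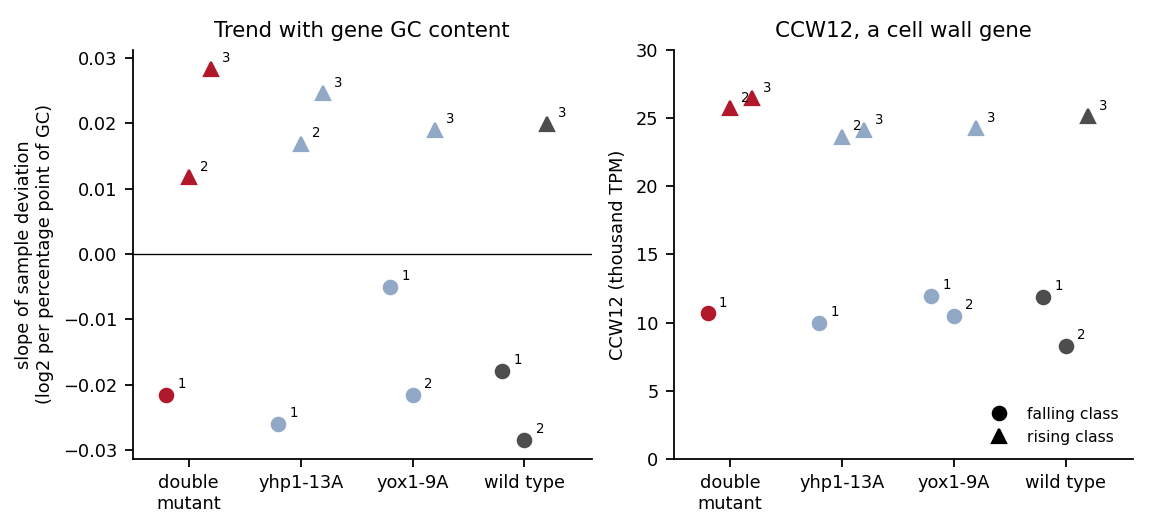
Left, slope of each sample's deviation (log2 per percentage point of GC) for the 3 replicates of the double mutant, both single mutants and WT, with the replicate number beside each point. Right, CCW12 in the same samples. Circles are the falling class and triangles the rising class, and every strain has samples in both, with CCW12 between 8279 and 11948 TPM in circles and between 23640 and 26468 TPM in triangles.

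The promoters of several genes that the comparison turned on are shown first, from 250 bases before to 50 bases after the gene start in the RefSeq R64 assembly. Searched were 2 elements on either strand, the core of the Mcm1 site (CCNNNNNNGG) and the core bound by homeodomains (TAATTA), and both read the same on either strand. Of 5733 promoters of tested protein-coding genes, 29.2% held the Mcm1 core, 14.98% held TAATTA and 4.20% held both. Among the 127 promoters of genes lower at an unadjusted p below 0.05, the shares were 38.6%, 16.5% and 5.51%. Among the 20 of genes higher at that level they were 25%, 15% and 0%. The share of TAATTA was thus near that of all promoters in either direction. A match is a description of letters and not evidence of binding. In the sequences that follow, capitals mark these elements.
YGP1: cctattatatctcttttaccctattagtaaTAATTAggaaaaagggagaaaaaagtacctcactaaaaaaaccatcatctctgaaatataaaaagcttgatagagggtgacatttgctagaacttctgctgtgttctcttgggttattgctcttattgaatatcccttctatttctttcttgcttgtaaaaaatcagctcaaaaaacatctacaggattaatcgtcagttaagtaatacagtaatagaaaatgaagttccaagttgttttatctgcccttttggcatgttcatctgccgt
KIN3: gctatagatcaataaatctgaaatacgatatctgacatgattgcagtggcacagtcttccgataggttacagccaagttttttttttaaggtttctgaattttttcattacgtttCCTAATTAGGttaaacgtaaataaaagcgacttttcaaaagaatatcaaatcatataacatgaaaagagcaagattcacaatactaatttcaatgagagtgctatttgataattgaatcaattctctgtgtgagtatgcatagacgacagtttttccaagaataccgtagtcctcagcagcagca
DBF2: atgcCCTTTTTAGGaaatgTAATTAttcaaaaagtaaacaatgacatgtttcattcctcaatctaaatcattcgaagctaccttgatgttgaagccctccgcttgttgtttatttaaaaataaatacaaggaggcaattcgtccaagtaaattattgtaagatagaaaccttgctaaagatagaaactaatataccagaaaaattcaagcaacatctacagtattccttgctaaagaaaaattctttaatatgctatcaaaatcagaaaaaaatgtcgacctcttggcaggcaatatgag
MFA1: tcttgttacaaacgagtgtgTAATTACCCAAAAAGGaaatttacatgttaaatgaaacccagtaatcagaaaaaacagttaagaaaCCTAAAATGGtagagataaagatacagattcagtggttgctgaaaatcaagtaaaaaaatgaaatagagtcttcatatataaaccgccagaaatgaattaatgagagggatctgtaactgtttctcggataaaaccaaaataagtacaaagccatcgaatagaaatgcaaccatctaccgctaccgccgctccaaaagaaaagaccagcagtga
MCM5: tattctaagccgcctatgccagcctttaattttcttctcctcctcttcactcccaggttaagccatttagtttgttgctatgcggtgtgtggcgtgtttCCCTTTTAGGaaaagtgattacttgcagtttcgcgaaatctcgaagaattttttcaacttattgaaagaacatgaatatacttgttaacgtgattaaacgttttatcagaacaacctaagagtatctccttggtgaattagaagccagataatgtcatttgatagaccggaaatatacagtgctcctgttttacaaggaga
MCM7: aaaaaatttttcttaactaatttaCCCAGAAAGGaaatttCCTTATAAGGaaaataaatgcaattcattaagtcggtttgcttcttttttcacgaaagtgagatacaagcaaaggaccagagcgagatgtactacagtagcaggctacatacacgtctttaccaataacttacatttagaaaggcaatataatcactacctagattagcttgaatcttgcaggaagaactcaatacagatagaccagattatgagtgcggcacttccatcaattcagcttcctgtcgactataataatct
YGP1 (chrXIV:336295-336594, plus strand) is shown as the gene with the firmest change. KIN3 (chrI:171654-171953, minus strand) is shown because TAATTA lay inside its Mcm1 core, as CCTAATTAGG 135 bases before the start. DBF2 (chrVII:667939-668238, plus strand) had its Mcm1 core 246 bases and TAATTA 231 bases before the start. MFA1 (chrIV:1384926-1385225, plus strand) had TAATTA 230 bases before the start, next to an Mcm1 core at 224 bases. STE6, another MATa-specific gene, had the same arrangement at 208 and 202 bases, and its level overlapped between the strains. MCM5 (chrXII:691305-691604, plus strand) and MCM7 (chrII:625522-625821, plus strand) are shown for their Mcm1 cores flanked by T and A runs, with 2 such sites in MCM7. This flanked form (TTNCCNNNNNNGGNAA) stood in 0.942% of all promoters and in 5 of the 14 genes of the prereplicative complex. They were CDC6, MCM3, MCM5, MCM6 and MCM7. CDC6 had a log2 fold change of 0.11, and MCM3 and MCM6 had an unadjusted p above 0.05. MCM2 and MCM4, lower at an unadjusted p below 0.05, lacked the form in this window, so within this list it did not mark every fall. Over all tested protein-coding genes, it was in 8 of 127 promoters of genes lower at that level (6.30%). Of the 20 promoters of genes higher at that level, 0 held it.

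Few genes separated the strains, and how many of them were lower depended on the scaling. At a limma adjusted p below 0.1, 1 gene was lower (0.0158% of genes tested) and 0 were higher (0.0%). Without adjustment, p fell below 0.05 for 140 lower genes (2.22%) and for 27 higher genes (0.427%). The 3 mutant samples lay below the 3 WT samples for 216 genes (3.42%) and above them for 69 (1.09%). A level at least 2-fold lower was seen for 28 genes (0.443%) and a level at least 2-fold higher for 2 (0.0317%). The log2 fold changes had a median of -0.12, and 4661 genes (73.8%) were below 0. Median-of-ratios scaling brought the median to 0.0022, with 3127 genes below 0, and at an unadjusted p below 0.05 it left 100 genes lower and 80 higher. Values on the TPM scale are therefore read against a general shift of -0.12, which ran from -0.21 without WT replicate 3 to -0.06 without replicate 2 of the double mutant. No list member with an unadjusted p below 0.05 turned its direction under this scaling. A typical gene had a standard error of 0.19. For a single gene, 3 samples a side cannot give an exact permutation p below 0.1, so such tests were not used.

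**Figure D2:**
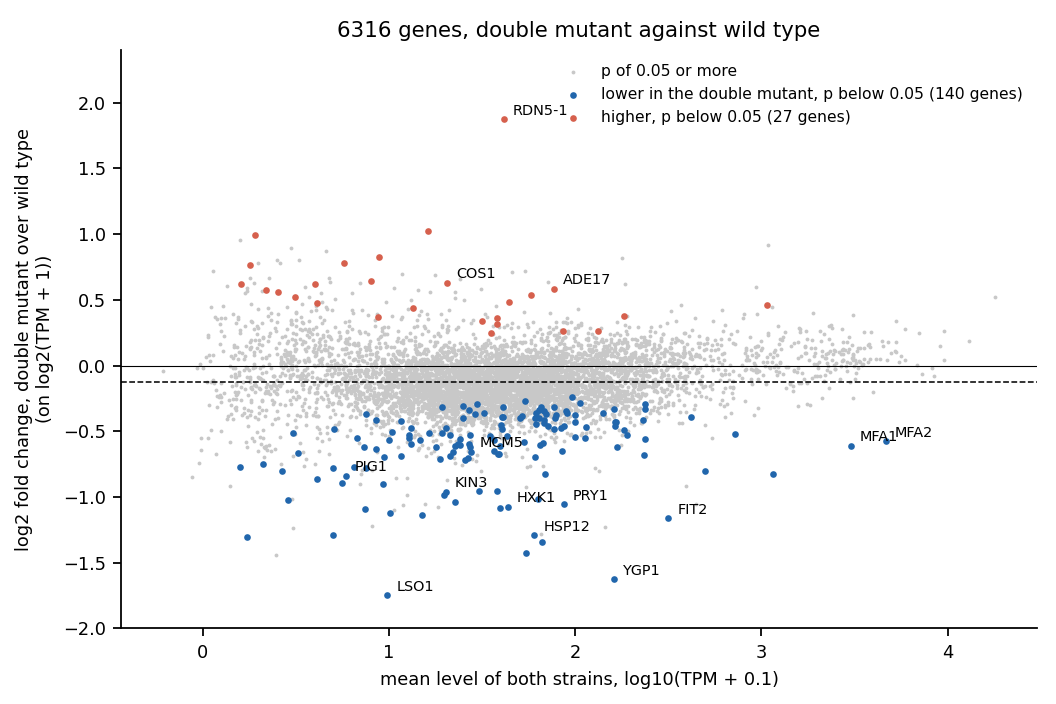
Each point is a tested gene, with the mean level of both strains as log10(TPM + 0.1) on the x axis and the log2 fold change of the double mutant over WT on the y axis. The dashed line marks the median of -0.12. Of the genes with an unadjusted p below 0.05, 140 lie below 0 and 27 above it, and YGP1 and LSO1 lie furthest below.

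YGP1 (YNL160W, chromosome XIV, 336545 to 337609) passed the adjusted threshold. It encodes a secreted glycoprotein of the cell wall that is known to be made when nutrients run low. YGP1 had 63.1, 93.1 and 81.4 TPM in the double mutant, against 251, 212 and 272 TPM in WT. The highest double mutant sample was thus below the lowest WT sample, and the mean level was 3.10-fold lower (log2 fold change -1.63, SE 0.22, limma adjusted p = 0.058). The log2 difference was -1.86 within the falling class and -1.63 within the rising class. The limma adjusted p was 0.071 without WT replicate 2 and between 0.15 and 0.43, above the threshold, without any of the other 5 samples. It was 0.26 after median-of-ratios scaling, with a log2 fold change of -1.50. In the single mutants, which share the WT samples, the level was 114, 153 and 128 TPM in yhp1-13A and 79.7, 76.5 and 136 TPM in yox1-9A. YGP1 was also called lower in yox1-9A (log2 fold change -1.37, limma adjusted p = 0.024), and in the double deletion it was called higher (0.71, limma adjusted p = 0.095). The double mutant was below yhp1-13A by a log2 difference of -0.73 and below yox1-9A by -0.26, and neither difference passed the test (limma adjusted p = 1.0 and 0.99).

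Genes of the general stress response were lower, with YGP1 itself counted among the listed members. This program, driven by Msn2 and Msn4, covers chaperones, antioxidant and carbohydrate enzymes that rise together when growth is limited. Of its 46 listed members, 14 were lower at an unadjusted p below 0.05 (30.4%, against 2.22% of all genes) and 0 were higher, and 42 were below 0 (91.3%, against 73.8%). Their median log2 fold change was -0.29, against -0.12 for all genes, and it was -0.27 within the falling class and -0.04 within the rising class, against -0.04 and -0.03 for all genes. The summed level of the list was 2271, 2118 and 2262 TPM in the double mutant and 3587, 3006 and 2752 TPM in WT, with no overlap. After median-of-ratios scaling the list had 9 members lower at an unadjusted p below 0.05, 0 higher and a median of -0.17. On the TPM scale the median ran from -0.45 without WT replicate 3 to -0.16 without WT replicate 1. The single mutants, which share the WT samples, had medians of -0.25 (yhp1-13A) and -0.27 (yox1-9A) for this list. HSP12, which encodes a small membrane-protecting protein, had 37.7, 43.9 and 22.3 TPM in the double mutant, against 102, 99.2 and 56.3 TPM in WT. All 3 mutant samples were lower than all WT samples for HSP12 (log2 fold change -1.29, SE 0.29, limma adjusted p = 0.43), and the within-class differences were -1.40 and -0.83. HXK1, the hexokinase made when glucose is low, had 29.0, 27.1 and 25.8 TPM in the double mutant, against 68.0, 46.2 and 63.6 TPM in WT. The double mutant samples lay close together and well below WT (log2 fold change -1.07, SE 0.18, limma adjusted p = 0.18).

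Several other stress genes were also lower in every double mutant sample. YRO2, a plasma membrane protein related to Hsp30, had 15.1, 15.9 and 11.3 TPM in the double mutant and 37.3, 34.4 and 20.4 TPM in WT. SPI1, a cell wall protein, had 27.0, 29.0 and 32.9 TPM in the double mutant and 57.4, 39.8 and 47.1 TPM in WT. SPI1 was called lower in yox1-9A (log2 fold change -1.07, limma adjusted p = 0.012), as was YRO2 (-1.25, limma adjusted p = 0.083). UBI4, the polyubiquitin gene, differed by less, at 53.0, 58.3 and 56.6 TPM in the double mutant and 66.7, 64.1 and 84.2 TPM in WT. None of these overlapped between strains, while TMA10 and MPC3, which had log2 fold changes of -1.43 and -1.34, did overlap. TMA10 had 142 and 73.7 TPM in WT replicates 1 and 2 and 29.5 TPM in WT replicate 3, against 37.1, 12.7 and 31.1 TPM in the double mutant. Its low WT sample was thus the sample of the rising class. The stress response element AGGGG, searched on either strand, was in 65.2% of the promoters of the list and in 22.0% of all promoters. HSP12 is shown as an example (chrVI:107006-107305, plus strand) with its elements in capitals.
HSP12: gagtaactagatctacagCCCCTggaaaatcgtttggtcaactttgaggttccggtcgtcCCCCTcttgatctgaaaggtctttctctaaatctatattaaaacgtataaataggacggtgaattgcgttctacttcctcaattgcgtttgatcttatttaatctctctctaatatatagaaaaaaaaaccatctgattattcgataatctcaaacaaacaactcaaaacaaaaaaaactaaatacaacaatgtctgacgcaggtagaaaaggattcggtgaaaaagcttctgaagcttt
Heat shock chaperones, a list that shares HSP26, HSP42, HSP78, HSP104 and SSA4 with this program, had a median of -0.19. At an unadjusted p below 0.05, 2 of 26 were lower (7.69%, against 2.22% of all genes). They were HSP26 and SSA1, a cytosolic Hsp70, which had 143, 137 and 112 TPM in the double mutant and 226, 222 and 161 TPM in WT.

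**Figure D3:**
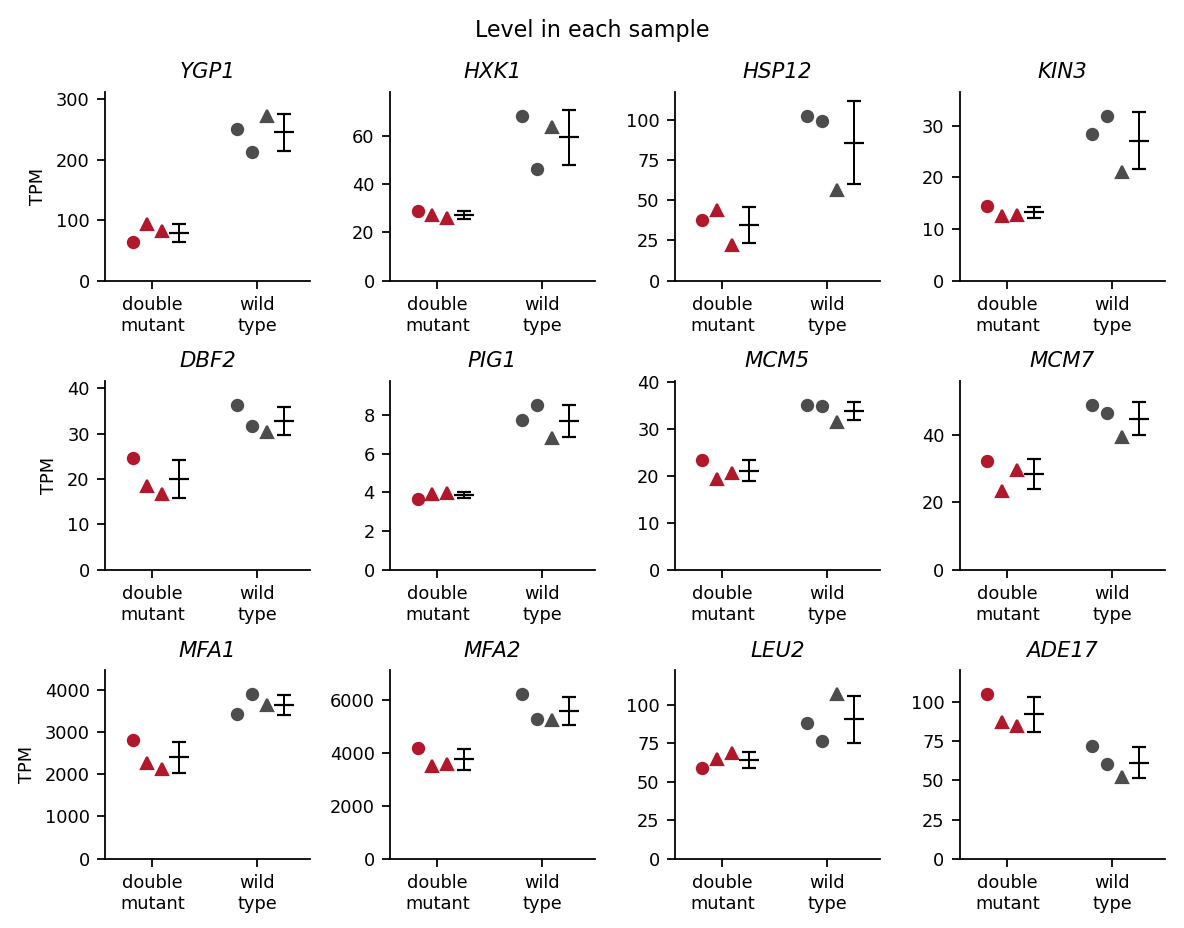
TPM of 12 genes in the 3 double mutant samples (red) and the 3 WT samples (grey), with the mean and SD as a black bar beside them; circles are the falling class and triangles the rising class. For all 12 genes the strains do not overlap, with ADE17 higher and the other 11 lower in the double mutant.

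Genes for glucose sensing and hexose transport, a list that includes HXK1, were shifted in the same direction. Of 22 members, 5 were lower at an unadjusted p below 0.05 (22.7%, against 2.22% of all genes) and 0 were higher, and the median was -0.32, against -0.12 for all genes (-0.28 and -0.23 within the classes). With median-of-ratios scaling the 5 and the 0 were the same in number and the median was -0.20. On the TPM scale the median ran from -0.46 without WT replicate 3 to -0.20 without WT replicate 1, and was -0.21 without replicate 2 of the double mutant. MIG1 and MIG2 encode repressors that act when glucose is plentiful. MIG2 had 190, 171 and 212 TPM in the double mutant, against 286, 343 and 224 TPM in WT, and MIG1 had 74.5, 65.0 and 68.6 TPM in the double mutant, against 101, 112 and 80.0 TPM in WT. Both were below WT in every sample, with log2 fold changes of -0.56 and -0.48 (SE 0.15 and 0.17, limma adjusted p = 0.79 and 0.83). GLK1, the glucokinase gene, had 22.6, 21.3 and 21.8 TPM in the double mutant and 39.3, 28.4 and 29.4 TPM in WT. MTH1, which keeps hexose transporter genes repressed without glucose, had a log2 fold change of -0.95, with overlapping samples. The main transporters HXT1 and HXT3 had log2 fold changes of -0.26 (SE 0.16) and -0.20 (SE 0.17), within the spread between replicates. In the list for the tricarboxylic acid, glyoxylate and 2-methylcitrate cycles the median was -0.01. At an unadjusted p below 0.05, 4 of 25 were lower, where 140 of all 6316 genes were. Median-of-ratios scaling left 2 lower at that level, where 100 of all 6316 genes were. On the TPM scale the 4 were PDH1, CIT2, ACO1 and CIT1. CIT2, the peroxisomal citrate synthase, had 64.9, 58.2 and 73.4 TPM in the double mutant and 122, 77.5 and 116 TPM in WT.

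Iron uptake genes were lower in the double mutant for all but 1 list member on the TPM scale. These genes, regulated by Aft1, encode cell wall proteins that retain siderophores, siderophore transporters and reductases. Of 26 members, 25 were below 0 (96.2%, against 73.8% of all genes), 7 were lower at an unadjusted p below 0.05 (26.9%, against 2.22%) and 0 were higher, with a median of -0.30, against -0.12. Without WT replicate 1 the median was -0.19. Median-of-ratios scaling left 3 lower at that level, 20 below 0 and a median of -0.18. The median was -0.34 and -0.26 within the classes, and 20 of 26 were lower in both (76.9%, against 33.1% of all genes). In yhp1-13A and yox1-9A the medians were 0.01 and -0.10, and for LSO1, FIT2, ARN2 and TIS11 no difference between the double mutant and a single mutant passed the test (limma adjusted p from 0.99 to 1.0). LSO1, a small protein made when iron is low, had 3.95, 3.09 and 3.55 TPM in the double mutant, against 8.95, 11.4 and 27.3 TPM in WT. Its WT samples were widely spread, and the standard error was 0.55 beside a log2 fold change of -1.75. FIT2, a cell wall mannoprotein, had 150, 305 and 134 TPM in the double mutant and 438, 262 and 607 TPM in WT, with overlap. FTR1, the high-affinity iron permease, had a smaller spread, with 210, 209 and 216 TPM in the double mutant and 271, 249 and 257 TPM in WT (log2 fold change -0.29, SE 0.11, limma adjusted p = 0.83). The summed level of the list was 1986, 2384 and 1987 TPM in the double mutant and 3182, 2281 and 3883 TPM in WT, so that WT replicate 2 lay within the range of the mutant. The Aft1 element TGCACCC was in 46.2% of the promoters of this list and in 1.31% of all promoters.

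**Figure D4:**
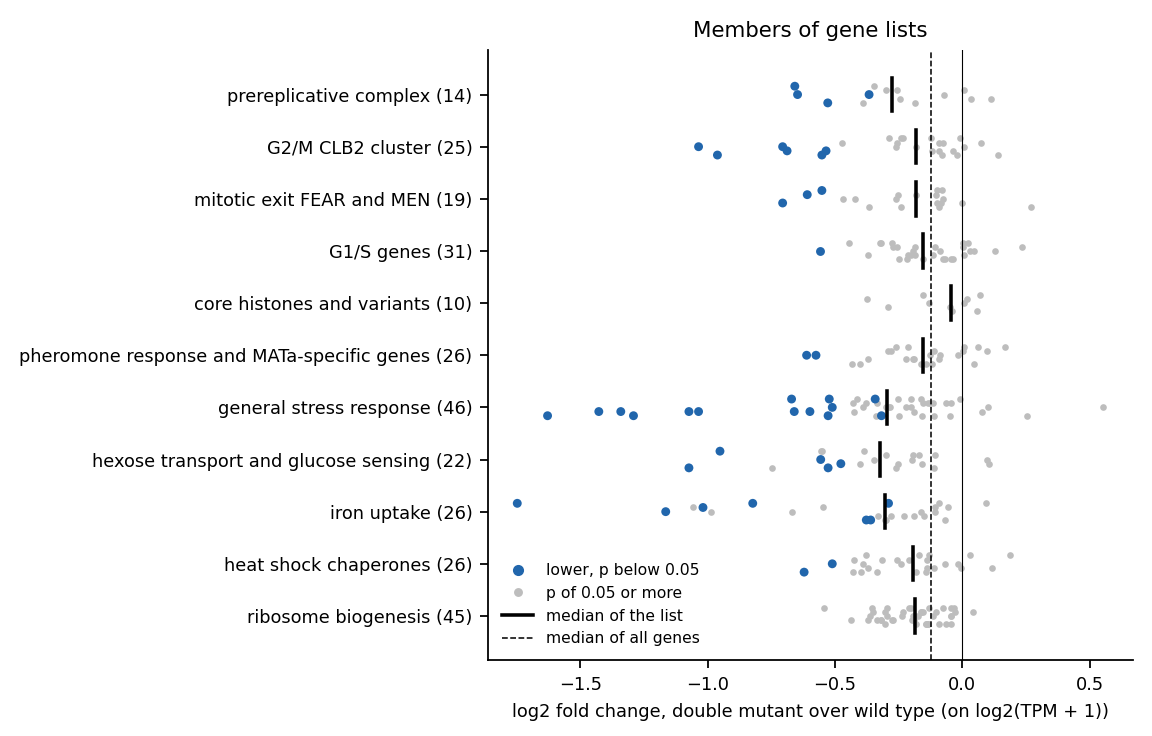
Log2 fold changes of the double mutant over WT for the tested members of 11 gene lists, with the number of members in brackets. Blue points have an unadjusted p below 0.05, short vertical lines are list medians and the dashed line is the median of all genes (-0.12). The blue points lie below 0 in each of these lists, and the prereplicative complex, stress, hexose and iron lists have medians between -0.32 and -0.28.

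Among cell cycle genes, 4 of the 6 MCM genes of the prereplicative complex were lower at an unadjusted p below 0.05, and none passed the adjusted threshold in the fit without covariates. This complex of ORC, Cdc6, Cdt1 (TAH11) and the MCM helicase is assembled on origins in G1. Of its 14 genes, these 4 were lower (28.6%, against 2.22% of all genes) and 0 were higher, and the median of the list was -0.28 (-0.20 and -0.15 within the classes, and -0.15 after median-of-ratios scaling, with 4 lower again). MCM5 (YLR274W) had 23.5, 19.2 and 20.7 TPM in the double mutant, against 35.0, 34.9 and 31.5 TPM in WT, and the strains were well apart (log2 fold change -0.66, SE 0.14, limma adjusted p = 0.34). MCM7 (YBR202W) had 32.1, 23.3 and 29.6 TPM in the double mutant, against 48.7, 46.3 and 39.2 TPM in WT, without overlap (log2 fold change -0.65, SE 0.16, limma adjusted p = 0.62). MCM4 had 28.2, 22.7 and 24.3 TPM in the double mutant, against 34.2, 35.0 and 28.6 TPM in WT, also without overlap (-0.37, SE 0.14). MCM2 overlapped, with 21.5, 14.6 and 15.7 TPM in the double mutant and 27.4, 27.0 and 21.0 TPM in WT (-0.53, SE 0.19). MCM3 and MCM6 had log2 fold changes of -0.25 and -0.35 with unadjusted p above 0.05. The ORC genes lay between -0.39 (ORC1, SE 0.29) and 0.03 (ORC5, SE 0.12), and CDC6, an ATPase that loads the helicase, stood at 0.11 (SE 0.22). MCM5, MCM7, MCM2, MCM4 and MCM3 were lower within each class, by at least 0.20 on the log2 scale. Beside MCM5, PIG1 is transcribed in the opposite direction from a shared interval of 525 bases on chromosome XII. PIG1, a candidate regulatory subunit of the glycogen phosphatase, had 3.67, 3.94 and 3.94 TPM in the double mutant and 7.77, 8.51 and 6.82 TPM in WT. The level in the double mutant was 2.00-fold lower (log2 fold change -0.84, SE 0.16, limma adjusted p = 0.29).

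The CLB2 cluster, transcribed in G2 and M by Mcm1 with Fkh2 and Ndd1, was lower in part of its members. Of its 25 members, 6 were lower at an unadjusted p below 0.05 (24.0%, against 2.22% of all genes) and 0 were higher, and the median was -0.18, against -0.12, with 0.09 within the falling class and -0.18 within the rising class. The median ran from -0.35 without replicate 1 to -0.07 without replicate 2 of the double mutant, and was -0.08 without its replicate 3 and -0.28 without WT replicate 3. Median-of-ratios scaling gave 6 lower, 0 higher and a median of -0.06. On the TPM scale the 6 were YRO2, KIN3, DBF2, HOF1, SPO12 and CDC20. KIN3, a mitotic kinase of the NIMA family, had 14.4, 12.5 and 12.8 TPM in the double mutant, against 28.4, 31.8 and 21.1 TPM in WT. The strains did not overlap (log2 fold change -0.96, SE 0.19, limma adjusted p = 0.29), and the within-class differences were -1.01 and -0.69. DBF2, the kinase of the mitotic exit network, had 24.7, 18.4 and 16.7 TPM in the double mutant, against 36.2, 31.6 and 30.4 TPM in WT. HOF1, needed for the cytokinetic ring, overlapped in 1 sample, with 19.4, 14.3 and 13.8 TPM in the double mutant and 30.4, 31.9 and 17.6 TPM in WT. CLB2 itself had 92.2, 73.9 and 64.8 TPM in the double mutant and 82.5, 87.1 and 79.5 TPM in WT (-0.12, SE 0.15). CDC5, NDD1, ALK1 and MOB1 had log2 fold changes between -0.09 and -0.02. The Mcm1 core was in 64.0% of the promoters of this list, against 29.2% of all promoters.

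In the lists for other stages, between 0 and 3 members passed an unadjusted p of 0.05. The mitotic exit genes (FEAR and MEN) had a median of -0.18, against -0.12 for all genes. It was -0.02 and -0.10 within the classes and -0.05 after median-of-ratios scaling. Of 19 members, DBF2, SPO12 and BNS1 were lower at an unadjusted p below 0.05 (15.8%, against 2.22% of all genes). DBF2 and SPO12 are also counted in the CLB2 cluster. BNS1, a paralog of SPO12, had 38.2, 26.6 and 27.4 TPM in the double mutant and 59.2, 49.1 and 35.1 TPM in WT. Of 31 G1/S genes, 1 was lower, YHP1 itself (3.23%, against 2.22% of all genes), and the median was -0.15. Among 10 histone genes 0 passed in either direction, and the 5 condensin genes had log2 fold changes from -0.28 to -0.10. The 18 daughter-specific and M/G1 genes had 0 members below an unadjusted p of 0.05 and a median of -0.02. Among the regulators of Start, MSA2, which tunes G1 transcription with SBF and MBF, was higher, with 37.7, 37.0 and 31.3 TPM in the double mutant and 29.7, 26.6 and 26.7 TPM in WT (0.34, SE 0.15, limma adjusted p = 0.83). The genes for MCM1, FKH1, FKH2 and NDD1 had log2 fold changes from -0.19 to -0.03.

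Both a-factor genes were lower without overlap, while STE2, STE6 and BAR1 overlapped. MFA2 had 4178, 3487 and 3552 TPM in the double mutant, against 6189, 5265 and 5245 TPM in WT (log2 fold change -0.57, SE 0.13, limma adjusted p = 0.43). MFA1 was 1.52-fold lower (log2 fold change -0.61, SE 0.16, limma adjusted p = 0.63), and both were lower within each class, with log2 differences of -0.37 and -0.73 for MFA1 and of -0.45 and -0.58 for MFA2. STE6, the exporter of a-factor, and BAR1, the protease that degrades α-factor, differed by less than the spread, at 81.4 ± 8.95 and 163 ± 18.5 TPM in the double mutant and 82.4 ± 7.99 and 152 ± 18.6 TPM in WT (SD, n = 3 each). Of the 26 genes of the pheromone response list, the other 24 had an unadjusted p of 0.05 or more, and the median was -0.15. Each a-factor gene had a neighbour with an unadjusted p below 0.05, CMI8 downstream of MFA1 and YNL146W upstream of MFA2. CMI8 had a log2 fold change of -0.60 (SE 0.25) and YNL146W of -0.71 (SE 0.24), and both neighbours were chosen after their values were seen.

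YHP1 and its LEU2 marker were both lower in the double mutant on the TPM scale, and neither had an unadjusted p below 0.05 after median-of-ratios scaling. YHP1 had 19.8, 17.8 and 19.0 TPM in the double mutant, against 26.4, 23.1 and 36.8 TPM in WT (log2 fold change -0.56, SE 0.18, limma adjusted p = 0.83). LEU2 had 58.7, 64.9 and 68.7 TPM in the double mutant, against 88.1, 76.6 and 107 TPM in WT (-0.48, SE 0.14, limma adjusted p = 0.83). Neither overlapped between strains. In yhp1-13A, which carries the same tagged allele and marker, LEU2 had 58.3, 62.8 and 65.9 TPM and YHP1 had 17.0, 24.2 and 22.8 TPM. YOX1 overlapped, at 73.7, 64.9 and 91.4 TPM in the double mutant and 80.1, 67.5 and 103 TPM in WT.

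Among the genes higher in the double mutant was ADE17, which encodes an enzyme of the last steps of purine synthesis. It had 105, 87.3 and 84.5 TPM in the double mutant, against 71.7, 60.5 and 52.0 TPM in WT (log2 fold change 0.59, SE 0.20, limma adjusted p = 0.83). ADE57 (ADE5,7), which acts early in the same pathway, had 203, 188 and 228 TPM in the double mutant and 154, 140 and 186 TPM in WT. HIS4, an enzyme of histidine synthesis, had 50.5, 38.0 and 39.5 TPM in the double mutant and 35.8, 32.4 and 30.1 TPM in WT. None of these overlapped. The remaining purine genes were examined after these values were seen. Of 10 purine enzymes, 8 were above 0, where 1655 of all 6316 genes were. Within both classes 8 of the 10 were higher (16.3% of all genes were), but only ADE17 and ADE57 had an unadjusted p below 0.05. BAS1, the activator of these genes, was lower, with 38.5, 29.8 and 32.4 TPM in the double mutant and 49.2, 51.5 and 38.7 TPM in WT. YFR012W-A, a short open reading frame, had 24.5, 19.0 and 21.4 TPM in the double mutant, against 7.11, 14.3 and 9.96 TPM in WT (1.02, SE 0.24, limma adjusted p = 0.43). YMR119W-A (0.44), COS5 (0.37) and the transfer RNA gene tW(CCA)G1 (0.78) were also among the 10 largest rises without overlap. Other higher genes lay in repeated sequence. Only fragments of high mapping quality were counted, so fragments that match several copies may be missing from their values. RDN5-1, a 5S ribosomal RNA gene in a tandem repeat, had 100, 27.4 and 71.8 TPM in the double mutant and 22.8, 8.83 and 17.1 TPM in WT, with no overlap. The subtelomeric COS1, of a multigene family, had 26.8, 23.6 and 24.5 TPM in the double mutant, against 18.4, 14.0 and 15.2 TPM in WT. Among the 10 largest falls without overlap were 4 transfer RNA genes, which have near-identical copies and are uncertain, tT(AGU)O2 (-1.29), tH(GUG)E1 (-1.12), tE(UUC)C (-1.10) and tN(GUU)P (-0.98).

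A term for the library class was added to the fit after the data were seen. With it, 23 genes were lower (0.364% of genes tested) and 3 were higher (0.0475%) at a limma adjusted p below 0.1. With a per-sample GC slope as covariate instead, 20 were lower (0.317%) and 2 were higher (0.0317%), and the calls of both fits shared 19 genes. The 23 included YGP1 (log2 fold change -1.78, limma adjusted p = 0.00011), HXK1, KIN3, DBF2, MCM5, MCM7, MCM2, PIG1, NCA3, PRY1, SPI1, YRO2, UBI4, GPP2, ECM4, COX5B, PET117, CIS1, NDL1, LEU2 and YHP1. The remaining genes called lower were a transfer RNA gene for aspartate and YBL071C-B, and those called higher were COS1, ADE17 and YEL074W. PRY1, a secreted sterol-binding protein, had 42.2, 42.0 and 77.9 TPM in the double mutant, against 92.2, 69.9 and 198 TPM in WT. Its highest value in either strain was a sample of the rising class, and the strains overlapped when classes were pooled, while the log2 difference was -0.91 within the falling and -1.77 within the rising class. NCA3, of the SUN family, had 22.5, 23.6 and 28.7 TPM in the double mutant and 45.2, 37.2 and 70.3 TPM in WT. The call of 23 rested on few samples, since leaving out a sample gave 1 to 19 genes called lower and 0 to 3 called higher. The fewest, 1, came without replicate 1 of the double mutant or replicate 1 of WT, and the count was 2 without WT replicate 3 and 3 without replicate 3 of the double mutant. It was 9 without WT replicate 2.

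**Figure D5:**
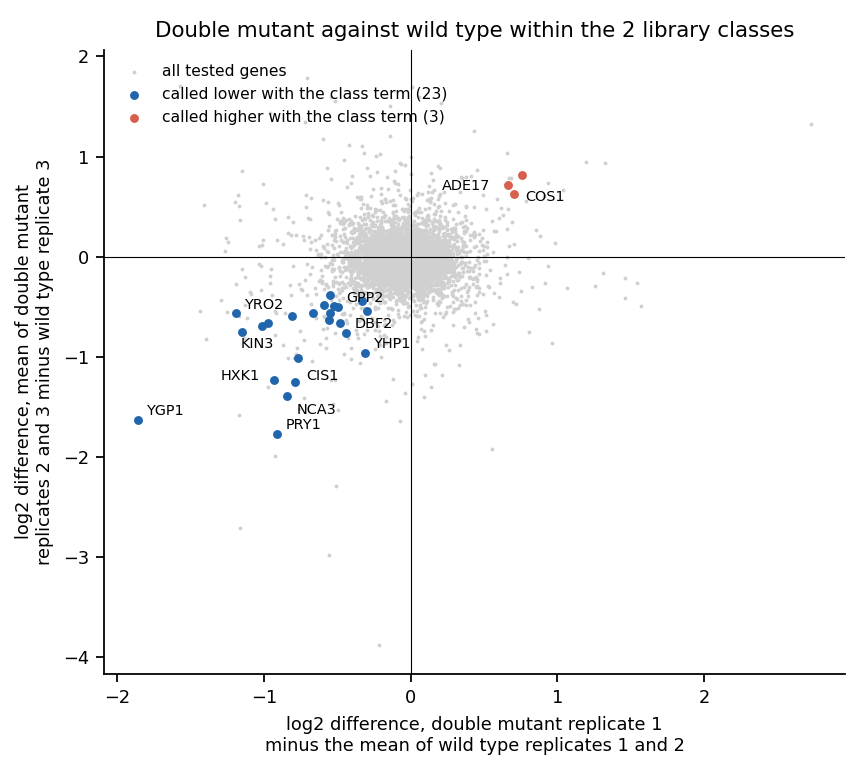
Each point is a tested gene, with its log2 difference within the falling class on the x axis (double mutant replicate 1 minus the mean of WT replicates 1 and 2) and within the rising class on the y axis (mean of double mutant replicates 2 and 3 minus WT replicate 3). The 23 genes called lower with the class term, in blue, lie below 0 on both axes, and the 3 called higher, in red, lie above 0 on both.

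Targets defined outside these strains were compared with the rest. The study drew these genes from induced expression of Yhp1, Yox1 or either phosphosite mutant, in experiments other than the present samples. The copy of the list used here held 323 genes, of which 319 were tested. At an unadjusted p below 0.05, 34 were lower (10.7%, against 2.22% of all genes) and 5 were higher (1.57%, against 0.427%). After median-of-ratios scaling 28 were lower and 7 higher, where 100 and 80 of all 6316 genes were. The mutant samples lay below all WT samples for 35 targets (11.0%, against 3.42% of all genes) and above them for 5 (1.57%, against 1.09%). The median of the whole list was -0.15, near the -0.12 of the 5997 tested genes outside it. With the class term, 13 of the 23 genes called lower were among the 319 targets of 6316 genes tested. Targets that were higher included MSA2 and CIP1, an inhibitor of the G1 cyclin kinase that was named after its values were seen. The Mcm1 core was in 43.4% of the target promoters and TAATTA in 17.0%, against 29.2% and 14.98% of all promoters.

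The double deletion yhp1Δ yox1Δ, in a separate set with its own WT, gave values for the same genes. In it, 12 of 6311 genes were lower (0.19%) and 28 were higher (0.444%) at a limma adjusted p below 0.1. The 2 sets were normalized separately, and no test was run between them. MCM7 stood at -0.65 (log2 fold change) in the double phosphomutant and 0.59 in the double deletion (limma adjusted p = 0.055 there). NCA3 had -0.96 and 1.54 (limma adjusted p = 0.0055 in the deletion), and KIN3 had -0.96 and 0.99 (limma adjusted p = 0.024). HXK1, at -1.07 in the double phosphomutant, stood at 0.11 in the double deletion. The a-factor genes had 0.10 (MFA1) and 0.39 (MFA2) in the double deletion, and the stress and iron lists had medians of 0.11 and 0.11 there, against 0.03 for all genes. COS1, at 0.63 in the double phosphomutant, stood at -1.02 in the double deletion (limma adjusted p = 0.011).

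Set beside the single mutants, no difference between the double mutant and yhp1-13A passed the test for any member of the lists (lowest limma adjusted p = 0.19). PIG1 stood at -0.84 (log2 fold change) in the double mutant, -0.47 in yhp1-13A and -0.77 in yox1-9A, all against the same WT samples. For MCM5 the values were -0.66, -0.25 and -0.67, and the double mutant differed from yox1-9A by 0.01. HXK1 had -1.07, -0.68 and -0.26, with a difference of -0.81 from yox1-9A (limma adjusted p = 0.14). Against yox1-9A, differences passed for the markers LEU2 (5.96, limma adjusted p = 1.5e-10) and HIS3 (-1.92, limma adjusted p = 0.0091), and among the other named genes for YFR012W-A (1.76, limma adjusted p = 0.0091), YBL071C-B (-0.91, limma adjusted p = 0.048) and CIS1 (-1.24, limma adjusted p = 0.045). Among the list members, HCM1, a forkhead activator of S phase genes (-1.002), the histone variant gene HTZ1 (0.56), the cell wall gene GAS3 (0.69), STE3 (1.11) and the target SOM1 (1.151) also passed, with limma adjusted p from 0.0081 (HCM1) to 0.045 (GAS3 and SOM1). By their labels the double mutant and yox1-9A also differed in the LEU2 marker and the Yhp1 tag. HIS3 RNA differed as well, and the origin of that difference was not tested. In differences between these strains, marker, tag, the difference at HIS3 and mutated sites of Yhp1 cannot be told apart. CIS1 had 11.97, 9.25 and 6.24 TPM in the double mutant, 10.1, 9.77 and 10.3 TPM in yhp1-13A, 20.5, 18.2 and 29.9 TPM in yox1-9A, and 19.4, 23.4 and 19.5 TPM in WT. Both strains with yhp1-13A were thus low for CIS1 and both without it were high.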

How the data were processed

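The members are all genes with a mean of at least 1 TPM over the 12 samples of the phosphomutant set. The genes named and the gene lists were chosen with earlier results of these data known. The authors aligned paired-end reads with STAR 2.5.3a to R64-1-1, counted exon fragments of high mapping quality with featureCounts 1.5.2 and deposited TPM values, which are scaled for gene length and depth within a sample. How the counts became TPM is not given in the sources used here. Gene names came from RefSeq R64, which matched 6048 of 7126 identifiers.

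Values were analysed as log2(TPM + 1), which understates changes of low genes, in R 4.3.3 with limma 3.58.1 (eBayes with a trend). All 12 samples of the set, in 4 groups, were fitted without covariates. The p-values are two-sided, with Benjamini-Hochberg adjustment across 6316 genes, and a gene was called at an adjusted p below 0.1. They measure the spread between cultures of 1 strain per group. Lists were described by counts and medians, with no test. Fragments were recovered from TPM times length, which was a whole multiple of 1 step within 0.05 for 100% of genes above 0 in each sample, and gave 16967873 to 18255340 per sample. Gene GC content was available for 91.0% of tested genes. Genes were named if called, if among the 10 largest falls or rises that had an unadjusted p below 0.05, at least 5 TPM and no overlap, if they mark the strains, or if they passed an unadjusted p of 0.05 or led their list. Others were chosen after their values were seen. The fit was tried on simulated data with independent errors, where it recovered 164 of 200 genes changed 2-fold, with 11 wrong calls. In the real samples 1 component, which followed the GC slope, held 63.3% of the variance between replicates. The simulated data lacked it, so they do not show how the fit performs with the library classes. Alternatives are listed in the closing section. Sequences were read from the RefSeq R64 genome with Python 3.11.15 and pandas 2.3.3.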

Additional observations from a re-analysis of the deposited data

How the results depend on the processing

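YGP1 was the gene called lower, and 0 genes were called higher, with a pseudocount of 0.1, with no filter, with a mean of at least 10 TPM, with only the 2 groups, with robust eBayes or with limma-voom on recovered fragments. Median-of-ratios scaling, eBayes without a trend and an adjusted p below 0.05 each gave 0 genes lower and 0 higher. The GC slope gave 20 lower and 2 higher, and with limma-voom 17 lower and 1 higher. A term for the library class, chosen after seeing the data, gave 23 lower and 3 higher, and with limma-voom 13 lower and 2 higher. Leaving out a sample gave 0 to 2 genes lower, with 2 without WT replicate 2 and 0 without any other, and 0 higher. With the class term the range was 1 to 19 lower and 0 to 3 higher. The cause of these differences was not tested. Over these settings the limma adjusted p of YGP1 ranged from 7.5e-05 to 0.43. After median-of-ratios scaling no list member with an unadjusted p below 0.05 changed sign, while the medians of the tricarboxylic acid cycle and the daughter-specific lists did, to 0.11 each, and the log2 fold change of CLB2 was 0.01.

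Same-numbered deviations of the double mutant and WT correlated at 0.53, -0.24 and 0.56, so not every pair varied together and no pairing was used, although replicates 1 and 3 follow the library classes. A replicate block gave 24 genes lower and 5 higher, 18 of them shared with the class term.

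Without adjustment, p fell below 0.05 for 140 lower and 27 higher genes on the TPM scale, and for 100 lower and 80 higher genes after median-of-ratios scaling. Each strain had 3 samples in 2 library classes. The classes came from the data, and their origin was not tested.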

Other observations

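Among gene groups outside the comparisons above, ribosome biogenesis genes had 44 of 45 members below 0 (97.8%, against 73.8% of all genes), a median of -0.18 (log2 fold change), where that of all genes was -0.12, and 0 members with an unadjusted p below 0.05. After median-of-ratios scaling 33 of 45 were below 0, with a median of -0.06. Genes for ribosomal proteins lay on the other side of the all-gene median, at 0.05 for the small and 0.04 for the large subunit. Of 33 cell wall genes, 21 were above 0, where 1655 of all 6316 genes were. The cell wall list had a median of 0.14, while YGP1, SPI1 and NCA3 were lower. That median was 0.11 within the falling class, -0.16 within the rising class and 0.02 with the class term, and ran from -0.0020 without WT replicate 2 to 0.34 without WT replicate 3.

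STE3, which encodes the receptor for a-factor and is named for its use as a strain marker, was higher at a low level. It had 3.54, 3.48 and 4.22 TPM in the double mutant, against 2.49, 2.65 and 1.81 TPM in WT, and differed from yox1-9A by 1.11 on the log2 scale (limma adjusted p = 0.043).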
